A study of Mus musculus with 4 samples.

Results

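The core circadian clock genes are a set of 10 genes listed by name: Arntl, Clock, Per1, Per2, Per3, Cry1, Cry2, Nr1d1, Nr1d2 and Dbp. They are 10 of the 21755 protein-coding genes of the GENCODE vM21 basic annotation on the autosomes and the X chromosome. ChIP-seq measured where the histone mark H3K27ac lay on the genome, an acetyl group on a lysine of histone H3 that marks promoters and enhancers in use. The left cerebral cortex came from B6CASTF1/J females aged 2 months, a strain that is a first-generation cross between C57BL/6J and a CAST strain. Pool I and pool J each combined 4 biosamples and gave 2 technical libraries, which makes 4 samples of 1 condition. No treatment, second tissue or control group belongs to the design, so no contrast was tested and every comparison between genes is a description. The hour of the day when the tissue was taken, which matters for genes that cycle, was not found in the labels or file headers used here. Cortex is a mixture of cell types, and a weaker peak in bulk tissue can come from fewer cells that carry the mark or from less of the mark per cell, which cannot be told apart.

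The clock is a feedback loop of transcription and translation. ARNTL (also called BMAL1) and CLOCK form a dimer that binds E-boxes and activates the Per and Cry genes, whose proteins return to the nucleus and repress that dimer. The nuclear receptors NR1D1 and NR1D2 (REV-ERB alpha and beta) are also activated through E-boxes and repress Arntl at ROR elements, the sites they share with the activating ROR receptors. DBP is an output factor of the PAR bZIP family that binds D-boxes. Accordingly Arntl and Clock are called the positive arm here, the Per and Cry genes the negative arm, Nr1d1 and Nr1d2 the accessory loop, and Dbp the output. The loop runs in most cells of the body, and in the brain the suprachiasmatic nucleus of the hypothalamus sets its phase from light.

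The letters below show where the clock's own motifs lay relative to the acetylated regions. They are the mm10 (C57BL/6J) reference, 5′ to 3′ on the strand of the gene, and a CAST copy can differ from it. The motifs searched on both strands were the E-box CACGTG, the E-box variant CACGTT, the D-box TTATGNAA, the ROR element AAGGTCA or TAGGTCA, and the cAMP response element TGACGTCA. The AAGGTCA and TAGGTCA forms count as 1 motif, and no 2 of the motifs are contained in each other. In the first group, capitals mark matches of these motifs. The Per1 windows come from a stretch without a peak just upstream of the gene, the Cry1, Nr1d1, Nr1d2 and Per3 windows lie inside promoter peaks, and the Arntl window is a short stretch of its first, untranslated exon.
Per1 E-box, chr11:69094856-69094915, plus strand: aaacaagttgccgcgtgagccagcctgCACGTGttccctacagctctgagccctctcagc
Per1 E-box, chr11:69095040-69095099, plus strand: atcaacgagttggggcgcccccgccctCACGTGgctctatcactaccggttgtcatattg
Cry1 E-box and variant, chr10:85185082-85185141, minus strand: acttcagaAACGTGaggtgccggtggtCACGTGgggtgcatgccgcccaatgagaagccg
Nr1d1 E-box and variant, chr11:98775668-98775727, minus strand: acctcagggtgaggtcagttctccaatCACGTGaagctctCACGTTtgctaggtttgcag
Nr1d1 E-box pair, chr11:98773832-98773891, minus strand: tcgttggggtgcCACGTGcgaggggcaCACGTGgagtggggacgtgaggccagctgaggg
Nr1d2 E-box, chr14:18238543-18238602, minus strand: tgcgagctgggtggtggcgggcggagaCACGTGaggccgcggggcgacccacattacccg
Per3 D-box, chr4:151044852-151044881, minus strand: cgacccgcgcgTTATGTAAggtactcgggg
Arntl ROR element, chr7:113207530-113207559, plus strand: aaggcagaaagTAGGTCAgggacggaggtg

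At 4 of the members the middle of the promoter was printed whole, because 2 acetylated regions stood on either side of it with a short stretch between them in which no peak was called. In these stretches capitals mark the same motifs and, in addition, CCAAT on either strand (ATTGG on the strand shown), a promoter element chosen for marking after the letters had been seen.
Arntl, chr7:113207229-113207486, plus strand: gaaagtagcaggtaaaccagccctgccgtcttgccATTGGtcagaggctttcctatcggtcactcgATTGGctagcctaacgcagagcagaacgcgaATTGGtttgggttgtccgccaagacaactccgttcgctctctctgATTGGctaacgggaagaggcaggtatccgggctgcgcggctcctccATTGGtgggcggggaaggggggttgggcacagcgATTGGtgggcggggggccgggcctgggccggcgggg
Per2, chr1:91459361-91459493, minus strand: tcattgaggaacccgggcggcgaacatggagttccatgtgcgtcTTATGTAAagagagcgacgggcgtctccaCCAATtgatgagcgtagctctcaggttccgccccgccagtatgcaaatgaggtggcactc
Nr1d1, chr11:98775357-98775480, minus strand: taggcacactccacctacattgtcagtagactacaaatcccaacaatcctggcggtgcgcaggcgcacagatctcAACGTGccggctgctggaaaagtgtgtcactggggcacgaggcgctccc
Dbp, chr7:45704924-45705069, plus strand: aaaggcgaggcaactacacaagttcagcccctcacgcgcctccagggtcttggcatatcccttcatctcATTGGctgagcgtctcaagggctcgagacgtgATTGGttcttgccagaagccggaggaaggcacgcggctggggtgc

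All 10 clock genes had a peak at their promoter, taken as any peak that reached within 1000 bp of an annotated transcription start site (TSS). Among all coding genes 58.5% had one in the replicated list, the authors' list made from both pools. All 10 also had one in the list of pool I alone and in the list of pool J alone, against 54.7% of coding genes. The value compared below is the signal of a gene's highest promoter peak, as the authors' peak caller gave it. How the caller normalized it was not stated in any label or file header used here. Levels are therefore also given as a percentile among the coding genes with a promoter peak in the same list. These were 12719 genes in the replicated list, 12672 in pool I and 12005 in pool J. The median of those genes was 8.86 in the replicated list, 10.5 in pool I and 7.79 in pool J. The replicated list took most of its peaks and values from a call on both pools together, so it is no separate measurement beside the pools. Of its 72027 peaks, 63593 had the same start, end and values in the list of both pools.

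In the positive arm, Arntl (ENSMUSG00000055116.8, chr7:113207465-113314126, plus strand) encodes the factor without which the loop stops. Its highest promoter peak had a signal of 11.9 in the replicated list, 11.7 in pool I and 9.46 in pool J. These placed it at percentiles 71.8, 57.4 and 65.6, so it ranked lower in either pool alone than in the replicated list. Clock (ENSMUSG00000029238.11, chr5:76209868-76304792, minus strand), its partner, had the lowest promoter signal of the 10 genes, at 8.27. Its values were 9.27 in pool I and 7.26 in pool J, at percentiles 41.2 and 44.2, and it lay below the median coding gene in all 3 lists. The Clock peak also lay within 1000 bp of a TSS of Gm7467, and ChIP-seq cannot assign it to one or the other. It covered 2076 bp in the replicated list, and in pool I it was called as 2 peaks, the wider of 1619 bp.

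**Figure D1:**
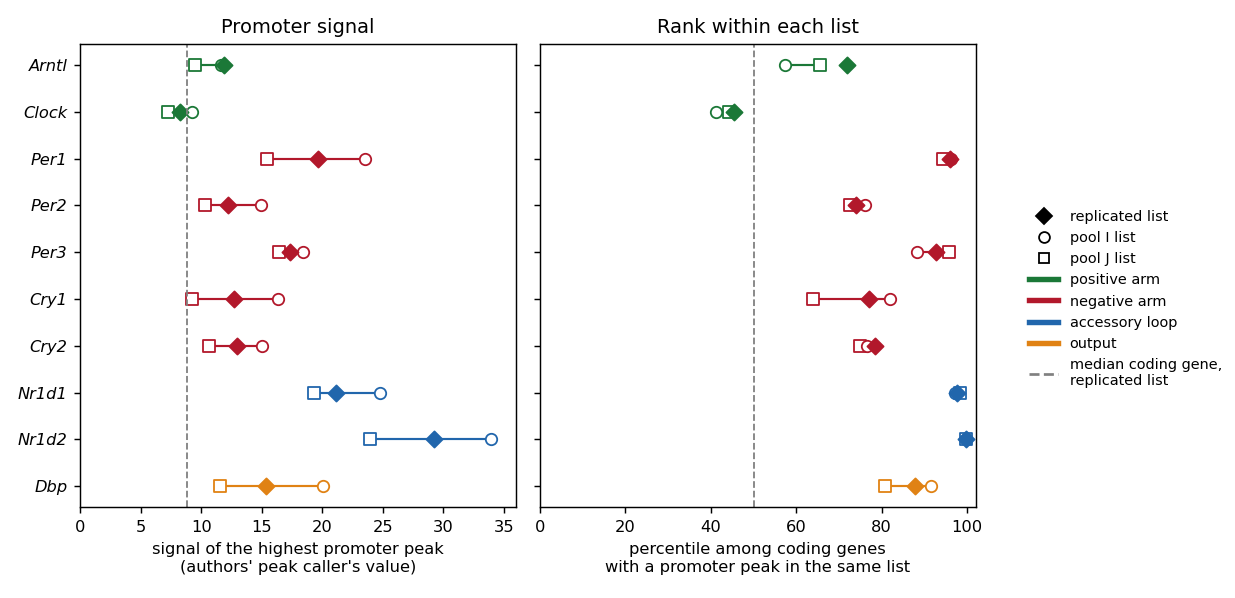
Signal of the highest promoter peak of each clock gene (left) and its percentile among coding genes with a promoter peak in the same list (right), in the replicated list (filled diamonds), pool I (circles) and pool J (squares), coloured by role. The dashed lines mark the median coding gene, 8.86 in the replicated list on the left and percentile 50 on the right. Clock lies below the median in all 3 lists, and Nr1d1 and Nr1d2 lie at the far right.

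Within the negative arm, Per1 (ENSMUSG00000020893.17, chr11:69095217-69109960, plus strand) had the highest signal in the replicated list and in pool I. Its peak stood at 19.6 in the replicated list, 23.5 in pool I and 15.4 in pool J, at percentiles 96.0, 96.1 and 94.4. Per3 (ENSMUSG00000028957.12, chr4:151003652-151044665, minus strand), the PERIOD gene least needed for rhythm, had 17.3 in the replicated list, 18.4 in pool I and 16.4 in pool J. It lay below Per1 in the replicated list and in pool I and above it in pool J, so their order turned between the pools. Per2 (ENSMUSG00000055866.9, chr1:91415982-91459324, minus strand), whose protein forms the core of the repressor complex with the cryptochromes, was lower at 12.2, 14.9 and 10.3. The 3 Period genes therefore spread from percentile 74.1 to 96.0 in the replicated list, with Per1 and Per3 above Per2 in each of the 3 lists.

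The cryptochromes, the direct repressors of the ARNTL and CLOCK dimer, lay close together. Cry1 (ENSMUSG00000020038.10, chr10:85131700-85185064, minus strand) had a signal of 12.7 in the replicated list, 16.4 in pool I and 9.28 in pool J. Cry2 (ENSMUSG00000068742.11, chr2:92403646-92434043, minus strand) had 13.0, 15.1 and 10.6. Cry1 was above Cry2 in pool I and below it in pool J and the replicated list, so their order was not stable between the pools. Per2, Cry1 and Cry2 lay within 74.1 to 78.4 in percentile and are not separated by these data.

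The accessory loop stood highest. Nr1d2 (ENSMUSG00000021775.11, chr14:18204054-18239127, minus strand) had a signal of 29.2 in the replicated list, 34.0 in pool I and 23.9 in pool J. In the replicated list that was rank 33 of the 12719 genes with a promoter peak. Its percentiles were 99.7, 99.8 and 99.7. Nr1d1 (ENSMUSG00000020889.11, chr11:98767932-98775333, minus strand) had 21.1, 24.8 and 19.3, at rank 316 and percentiles 97.5, 97.2 and 98.4. Dbp (ENSMUSG00000059824.12, chr7:45705088-45710203, plus strand), the output factor, had 15.3, 20.0 and 11.6. It was at percentile 87.8 in the replicated list, 91.6 in pool I and 80.7 in pool J.

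Set side by side, the median percentile of the 2 positive arm genes was 58.6 and that of the 5 negative arm genes 78.4, a difference of −19.8 (positive minus negative). In pool I the medians were 49.3 and 81.9, and in pool J 54.9 and 74.9, so the negative arm was higher in each pool. In the replicated list and in pool I every negative arm gene had a higher signal than both positive arm genes. In pool J this did not hold, since Arntl (9.46) lay just above Cry1 (9.28). It did not hold either where the signals of all promoter peaks of a gene were summed, which placed the positive arm between percentiles 31.1 and 86.0 and the negative arm between 59.0 and 99.4. With 2 genes against 5, which are not replicates of a condition, no test was made. The median over the 10 genes was percentile 83.1.

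Width gave another order than signal. The widest and the highest promoter peak of a gene were separate peaks at Per3, Cry2 and Dbp. In the replicated list the widest promoter peak was 6268 bp at Per1, 5647 bp at Dbp, 4331 bp at Nr1d1, 3391 bp at Arntl, 2727 bp at Cry2, 2477 bp at Nr1d2 and 2076 bp at Clock. In pool I the widest peak of Nr1d1 was 7355 bp and in pool J 2132 bp, below the 3339 bp of Arntl and the 2226 bp of Nr1d2 there. That of Cry2 was 2802 bp in pool I and 1691 bp in pool J. Peaks were wider in pool I in general, with a median of 1332.5 bp for coding genes with a promoter peak, against 1018 bp in pool J. Per2 (1456 bp), Cry1 (1342 bp) and Per3 (1191 bp) had narrow ones in the replicated list, near the median of 1192 bp for coding genes with a promoter peak. In the replicated list a peak of 2000 bp or wider was thus found at 7 of 10 members and at 19.6% of coding genes with a promoter peak. Clock passed that width in the replicated list alone (1619 bp in pool I and 1960 bp in pool J). Cry2 fell below it in pool J, and Per2 passed it in pool I alone (2071 bp). By width the positive arm (median 2733.5 bp) was above the negative arm (median 1456 bp), the reverse of their order by signal. In pool I these medians were 2663 and 2071 bp, and in pool J 2649.5 and 1349 bp. Arntl and Clock are long genes, and in the replicated list their promoter peaks were wide and of moderate height. The 17.3 peak of Per3 was 905 bp wide, and its 1191 bp peak had a signal of 10.8.

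**Figure D2:**
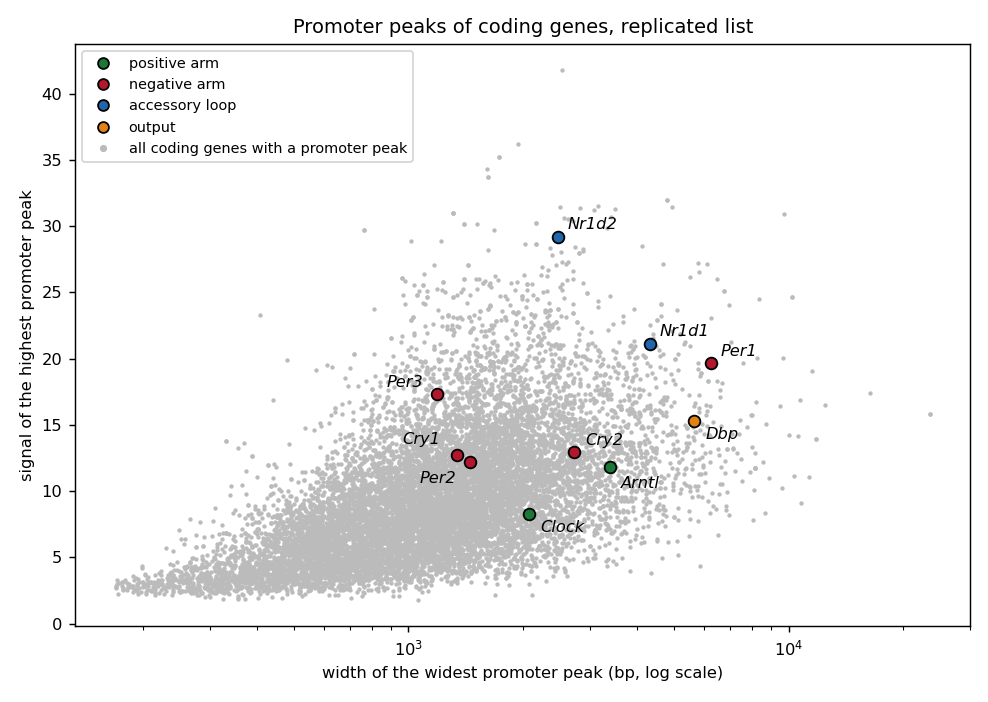
Width of the widest promoter peak (bp, log scale) against signal of the highest promoter peak for coding genes with a promoter peak in the replicated list (grey), with the clock genes coloured by role. At Per3, Cry2 and Dbp the 2 values come from separate peaks. Nr1d2 is high at moderate width (29.2 and 2477 bp), Per1 and Dbp are wide (6268 and 5647 bp), and Clock is lowest in signal of the 10 (8.27).

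The pools differed in overall level and in the number and width of their peaks. The list of pool I held 69834 peaks of median width 760 bp and that of pool J 49839 of median width 604 bp. Peaks found in pool I and not in pool J are to be read beside that difference. The signal in pool I divided by that in pool J ranged over the members from 1.12 at Per3 to 1.76 at Cry1, with Dbp at 1.73. Over coding genes with a promoter peak in both pools its median was 1.40, with 1.05 and 1.81 as the 10th and 90th percentiles. By these values all 10 members lay inside that range. Pool I was higher at 17 of 17 promoter peaks of the members, and the share over all promoter peaks was not computed. The 2 promoter peaks of Nr1d1 overlap a single pool I peak (24.8), so their pool I values are not separate. At Dbp the ratio compares separate peaks, since the downstream peak was the higher in pool I and the upstream one in pool J. Its downstream peak had 20.0 in pool I and 9.22 in pool J, and its upstream peak 18.9 and 11.6. By rank, which takes out the overall level, Cry1 moved most, from percentile 81.9 in pool I to 64.0 in pool J. Dbp moved from 91.6 to 80.7, again between separate peaks, while Arntl, Per3, Clock and Nr1d1 ranked higher in pool J. The number of reads behind each pool is not known, and with 2 pools no test of a difference between them was made.

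**Figure D3:**
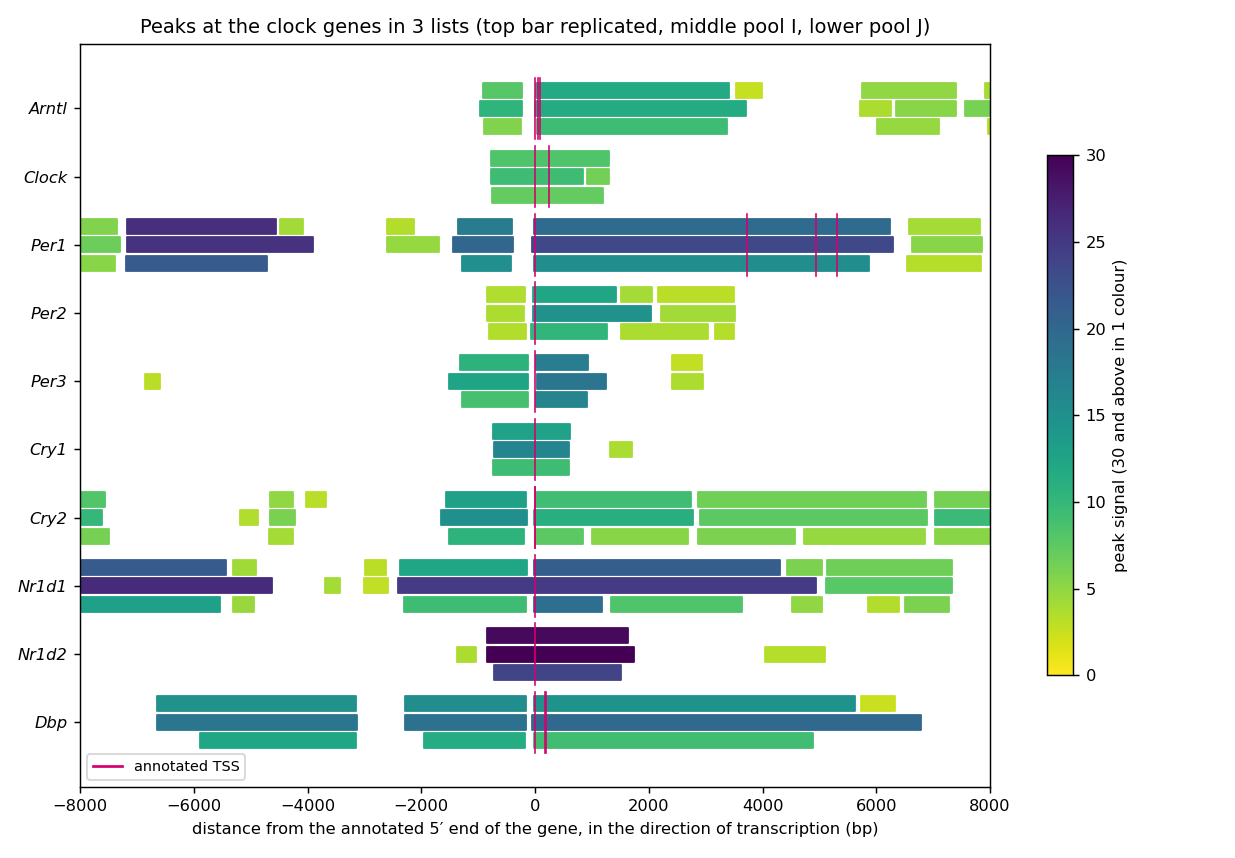
Peaks within 8000 bp of the annotated 5′ end of each clock gene, as distance in bp in the direction of transcription, in the replicated list (top bar), pool I (middle bar) and pool J (lower bar), coloured by signal. Vertical lines mark annotated TSSs. At 7 genes 2 peaks flank a gap at the TSS, and in pool I the gap of Nr1d1 lies inside 1 peak of 7355 bp.

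At most of these promoters the acetylated region was split in 2 at the TSS. The members had 21 annotated TSSs, of which 19 had a peak within 1000 bp. The exceptions were an internal TSS of Arntl 27158 bp past the 5′ end and one of Clock 30780 bp past it. Together they had 17 promoter peaks, and 7 of 10 members had 2 of them, against 42.5% of coding genes with a promoter peak having 2 or more. None of the 17 summits lay within 100 bp of the nearest TSS of the gene, and all lay within 1000 bp of it, 9 upstream and 8 downstream. The same was not counted over the promoter peaks of all coding genes, so whether the members differ in this is not known. A gap of at most 1000 bp between neighbouring peaks, reaching to within 100 bp of a TSS, was present at Per1, Per2, Per3, Cry2, Nr1d1, Arntl and Dbp. These are 7 of 10 members, against 30.7% of coding genes with a promoter peak, by a rule set after the peaks had been seen. If the gap had to contain a TSS, 3 members (Per3, Cry2 and Arntl) and 20.2% of genes met it. Cry1, Nr1d2 and Clock had 1 unbroken peak across the TSS.

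The gaps were 124 bp at Nr1d1, 133 bp at Per2, 141 bp at Per3, 146 bp at Dbp, 173 bp at Cry2, 258 bp at Arntl and 383 bp at Per1. Their median of 146 bp was near the 174 bp of all such gaps (quartiles 123 and 250 bp), and that of Per1 was the longest. The gap of Per1 ran from 408 to 26 bp before the 5′ end, and it was 333 bp in pool I and 413 bp in pool J. The sides were not equally strong. At Per2 the downstream peak had a signal of 12.2 and the upstream one 3.58, a ratio of 3.41, and the ratio was 4.04 in pool I and 3.02 in pool J. The ratio was 1.73 at Nr1d1, 1.61 at Per3, 1.49 at Arntl, 1.12 at Per1, 0.961 at Dbp and 0.712 at Cry2. Cry2 was the one member whose upstream side was stronger in all 3 lists (ratios of 0.734 in pool I and 0.715 in pool J).

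Per1 had a second feature. Its downstream peak, chr11:69095192-69101459, took in 4 annotated TSSs, and its summit lay 3873 bp from the 5′ end and 142 bp past the internal TSS at 69098948. The 250 reference bases before that internal TSS, as RefSeq gives them (GRCm38.p6), hold an E-box and a D-box, and are shown because the tallest point of the Per1 region fell beside them, with these motifs in capitals.
Per1 internal start, chr11:69098699-69098948, plus strand: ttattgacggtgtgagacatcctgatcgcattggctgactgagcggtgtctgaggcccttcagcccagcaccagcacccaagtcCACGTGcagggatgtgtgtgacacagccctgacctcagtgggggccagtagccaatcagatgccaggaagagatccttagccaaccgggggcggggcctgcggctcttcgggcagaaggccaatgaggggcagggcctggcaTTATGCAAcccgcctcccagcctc

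RefSeq promoter windows of 300 bases matched 9 of the 10 members, in 13 windows. Among 21045 such windows of coding genes, 7.91% held an E-box and 3.12% a D-box. Of the members' 13 windows, only those of the Per1 internal start and of Cry1 held an E-box. Only those of the Per1 internal start and of Per3 held a D-box. The 2 D-boxes of the Per3 window lay at −201 and −154 bp from its 5′ end. A match is a statement on letters, and no binding of any factor was measured.

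Within 2000 bp of the 5′ ends, 44 motif matches were found, of which 32 lay in promoter peaks, 4 in gaps at the TSS, 1 in another peak and 7 in no peak. All 10 E-boxes lay in a promoter peak (8) or in the gap of Per1 (2). The share of the searched bases that lay under peaks was not computed, so these counts are not set against an expectation. The Per1 E-boxes shown above were centred at −332 and −148 bp. E-boxes were found in 8.37% of the 3634 gaps of coding genes. The E-box of Cry1 lay at −47 bp with a variant at −66 bp, in its single peak. Nr1d1 had E-boxes at −364, 1177, 1457 and 1472 bp, the last 3 in introns and the last pair shown above. Nr1d2 had 3, at 452, 555 and 600 bp, all in an intron under its 29.2 peak. Arntl, Clock, Per2, Per3, Cry2 and Dbp had none within that distance. In the gap of Per2 a D-box lay at −121 bp, and the variant at 8 bp lay in the downstream peak. The ROR element shown for Arntl was centred at 79 bp, in the first, untranslated exon and inside the wide downstream peak.

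**Figure D4:**
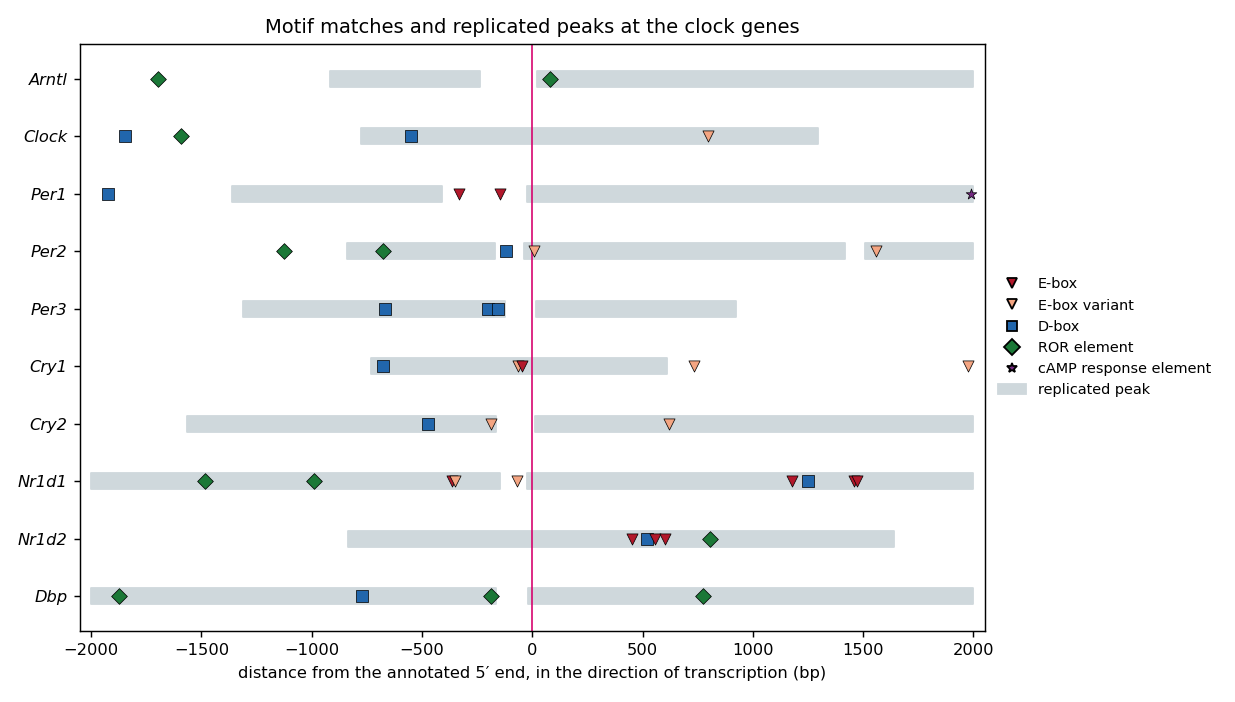
Matches of the 5 motifs within 2000 bp of the annotated 5′ end (distance in bp, in the direction of transcription) over the replicated peaks (grey bars) of each clock gene. The 2 E-boxes of Per1 fall between its peaks, and the 3 E-boxes of Nr1d2 fall 452 to 600 bp downstream of its 5′ end.

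Counted within 1000 bp of the 5′ end, E-boxes were present at 4 of 10 members (Per1, Cry1, Nr1d1, Nr1d2) against 27.7% of coding genes. The variant was present at 5 (Per2, Cry1, Cry2, Nr1d1, Clock) against 28.8%. D-boxes were present at 7 (Per2, Per3, Cry1, Cry2, Nr1d2, Clock, Dbp) against 22.4%. ROR elements were present at 5 (Per2, Nr1d1, Nr1d2, Arntl, Dbp) against 39.5%, a share near the background. The cAMP response element in this exact form was present at none, against 4.05%, and the one match of Per1 lay at 1988 bp. In the 39864 bp of the members' promoter peaks there were 0.401 E-boxes per kb, against 0.196 per kb in all promoter peaks of coding genes. The accessory loop had 8 of these 16 E-boxes, at 0.885 per kb, the negative arm 0.296 and the positive arm 0.163. D-boxes stood at 0.251 per kb in the members and 0.105 in all promoter peaks, and ROR elements at 0.251 and 0.236.

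CCAAT, the element marked in the gaps above, occurred in 6 of the 7 gaps of the members, 17 times in 1358 bp. In the gaps of all coding genes it occurred in 39.4%, and its density was 12.5 per kb in the members and 3.32 per kb in all gaps. Because CCAAT was chosen after the letters of these same gaps had been seen, the difference is a description and was not tested. Arntl had 6 copies in 258 bp, each read as ATTGG on its own strand, Per1 had 4, and Per3, Cry2 and Dbp had 2 each. Per2 had 1 and Nr1d1 had none. CpG content varied widely. In the window of 500 bp on either side of the 5′ end, the observed over expected CpG ratio was 1.01 at Cry1, 1.00 at Per2, 0.908 at Clock, 0.873 at Arntl, 0.839 at Cry2, 0.801 at Per3, 0.774 at Nr1d2, 0.679 at Dbp, 0.626 at Per1 and 0.438 at Nr1d1. The median was 0.820 for the members and 0.724 for coding genes with a promoter peak. Clock, lowest in signal, had the highest GC content of the members (74.3%), and Nr1d1, second in signal, the lowest (54.8%). Nr1d2, first in signal, had 68.0%, above the members' median of 65.7%, so GC content and signal did not simply run opposite.

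Beyond the promoters, 229 replicated peaks lay within 100 kb of an annotated TSS of a member, and no peak was shared by 2 members. They comprised 17 promoter peaks of the members, 43 peaks in their gene bodies, 62 at promoters of other genes and 107 elsewhere. The number per gene ran from 3 at Clock, 6 at Cry1, 11 at Per2 and Nr1d2 and 15 at Per3 to 25 at Dbp, 33 at Cry2, 39 at Per1 and 43 at both Nr1d1 and Arntl. In the list of pool J alone Arntl had 28 and Per3 9, and in that of pool I alone Clock had 6. Coding genes had a median of 7 (quartiles 2 and 15), and those with a promoter peak a median of 11 (quartiles 6 and 19). The members' median was 20, but 6 of 10 exceeded the median of genes with a promoter peak, so Clock and Cry1 were poor in peaks and Per2 and Nr1d2 average. Genes with distant internal TSSs have a larger window (from the 5′ end alone Arntl had 38 peaks and Clock 2), and gene-dense places bring other promoters. Dbp had 15 other coding genes with a TSS within 100 kb, Per1 11, Nr1d1 8 and Arntl none.

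**Figure D5:**
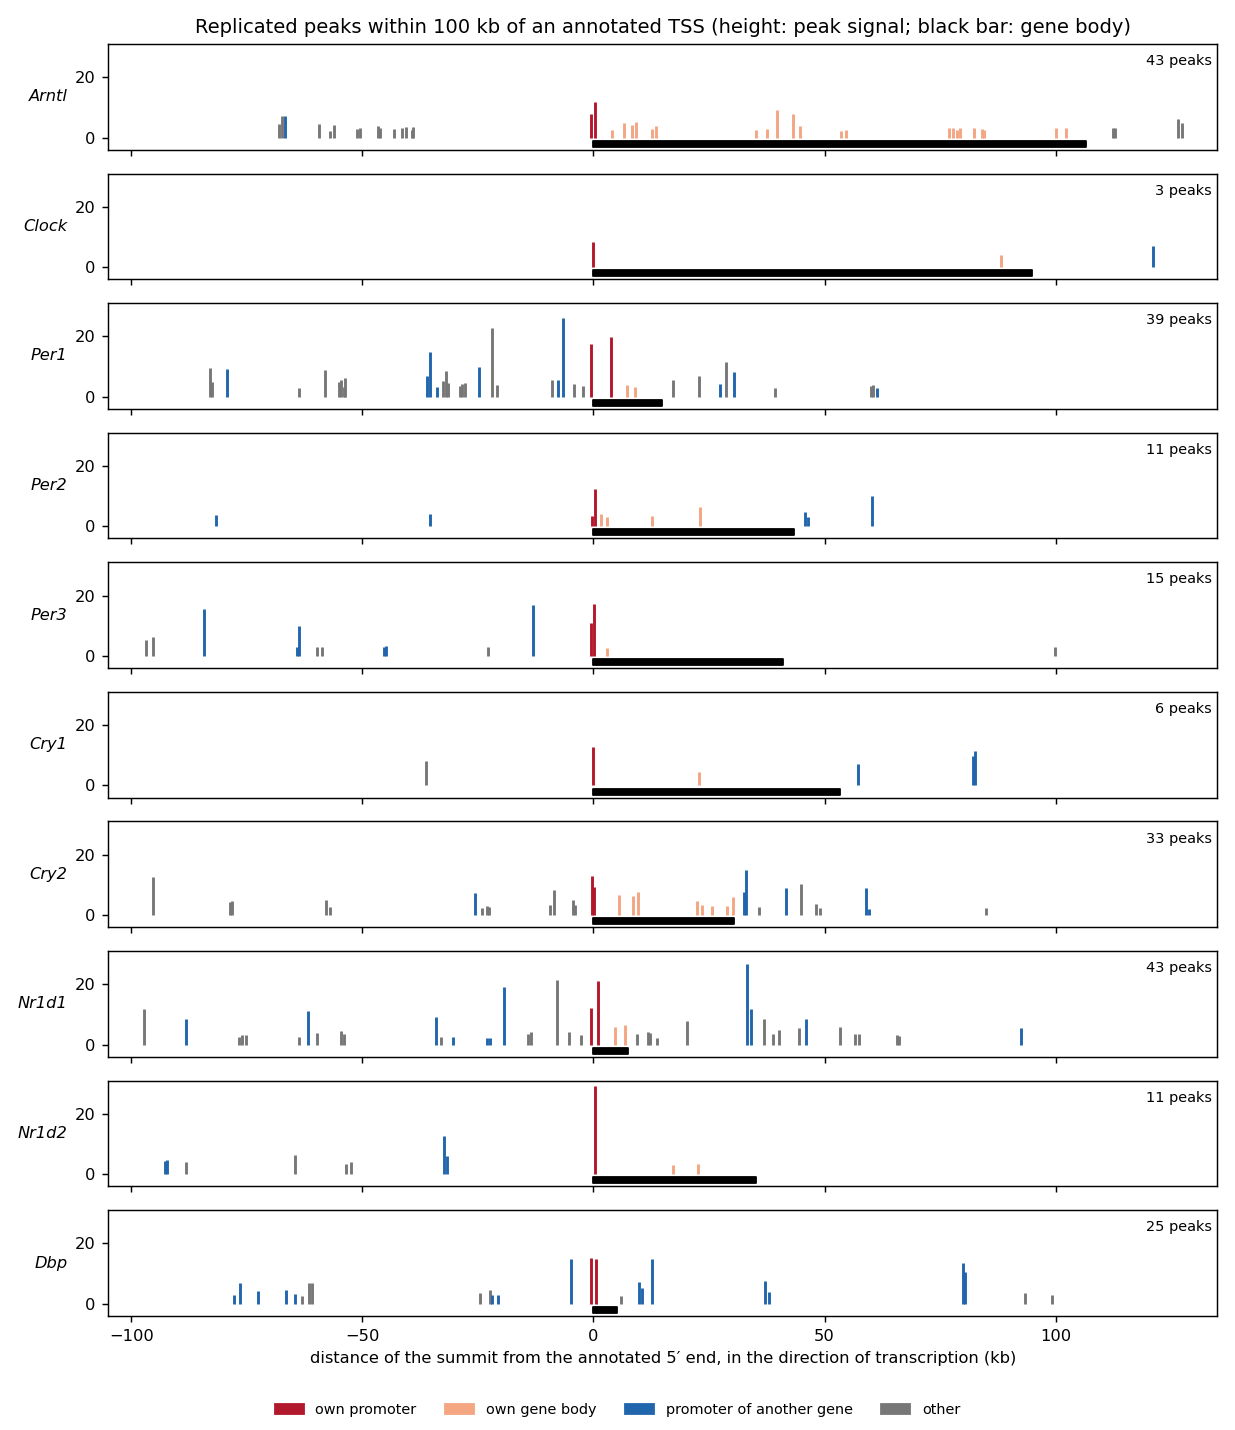
Replicated peaks within 100 kb of an annotated TSS of each clock gene, at the distance of the summit from the 5′ end in kb and with the signal as height, coloured by class. Arntl has 22 peaks in its gene body, Clock has 3 peaks in all, and the tallest peaks near Per1 and Nr1d1 include those at the promoters of Vamp2 and Thra.

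The 2 genes of the positive arm differed in their surroundings. Arntl, of 106.662 kb, held 22 peaks in its body, and for 35 of its 43 peaks it was the coding gene with the nearest TSS. Of the 22, 10 overlapped the lists of both pools, 5 only that of pool I, 2 only that of pool J and 5 neither. Of the 43 peaks near Arntl, 18 had a −log10 q of 5 or more. The strongest lay in introns, chr7:113245188-113248508 with a signal of 9.15 and a width of 3321 bp, and chr7:113249004-113251734 with 7.93 and 2731 bp. Their summits were 39615 and 43071 bp past the 5′ end, and both were found in both pools. Clock, of 94.925 kb, held 1 gene body peak, of signal 4.07 and width 363 bp, found in pool I and not in pool J. The remaining peak near Clock lay at the promoter of Tmem165 (7.16). So in the replicated list genes of like length in the same arm held 22 and 1 peaks in their bodies, and 10 and 0 of these were present in both pools. A gene body peak was present at 9 of 10 members, all but Dbp, against 32.0% of all coding genes. That share includes genes without a promoter peak, while every member had one. The downstream promoter peak of Dbp ran from −18 to 5628 bp and so covered its whole body of 5.116 kb. Cry2 had 8, Per2 had 4, Per1, Nr1d1 and Nr1d2 had 2 each, and Per3 and Cry1 had 1 each. That of Per3, like that of Clock, was found in pool I and not in pool J.

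The strongest peaks outside the members' own promoters lay mostly at neighbouring promoters. For Per1 the highest was that of Vamp2, a synaptic vesicle protein (25.9), followed by a peak at chr11:69072339-69073971 (22.9), at −21911 bp from the 5′ end of Per1, for which Tmem107 was nearest. Both were higher than the Per1 promoter in the replicated list and in each pool (25.7 and 28.8 in pool I, 21.5 and 16.9 in pool J). For Nr1d1 the highest was at Thra, the thyroid hormone receptor gene (26.6, 5814 bp). The next was a 6990 bp peak at chr11:98780773-98787762 (21.5) with its summit at −7871 bp from the 5′ end of Nr1d1, the coding gene with the nearest TSS. That peak had a signal of 26.5 in pool I and 13.1 in pool J, while the Nr1d1 promoter had 24.8 and 19.3. For Per3 the 2 highest lay at promoters of Vamp3 (16.7) and Camta1 (15.4), and for Cry1 they were a pair at Fhl4 and Tmem263 (11.4 and 9.63).

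For Cry2 they were the promoter of Mapk8ip1 (14.9) and a peak at −95189 bp (12.5, 2535 bp wide) whose nearest coding gene was Slc35c1. For Dbp they were the promoters shared by Rpl18 and Sphk2 (15.0) and that of Car11 (14.9), near the signals of Dbp's own peaks (15.3 and 14.7). For Per2 they were the promoter of Ilkap (10.1) and an intronic peak of 1819 bp (6.46). Nr1d2 stood apart from its surroundings: after its own 29.2 came the promoter of Nkiras1 and Rpl15 (12.7) and a peak at −64485 bp (6.48) found in pool I and not in pool J. Distance alone assigns no peak to a gene.

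Of the 229 peaks 155 (67.7%) were present in the lists of both pools, with an overlap of at least 1 bp, against 56.0% of all replicated peaks. A further 45 overlapped only the pool I list, 7 only the pool J list and 22 neither list. Of all replicated peaks 26.3% overlapped only the pool I list, 3.79% only the pool J list and 13.9% neither. Outside the members' own promoters the share in both pools was 65.1% of 212. The 22 peaks in neither list were weak (median signal 2.72) and narrow (median width 264.5 bp). Among the members, Cry1 had all 6 of its peaks in both pools and Arntl the lowest share, 53.5%.

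A list of 20 further clock genes put the core set in context. A promoter peak was found at 18 of them in the replicated list, against 58.5% of all coding genes. Each pool's list also gave 18, but not the same 18 genes. Arntl2 had none in pool I, and Fbxl21 had one in pool I alone. Of the 5 other positive factors, Npas2, the paralog of Clock, had a signal of 12.2 at percentile 74.1, above Clock itself. It was 12.3 in pool I and 9.78 in pool J. The receptors Rora and Rorb, which compete with NR1D1 and NR1D2, had 9.66 and 6.56. Arntl2, the paralog of Arntl, had 3.67 with no promoter peak in pool I.

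All 5 further repressors had one: Nfil3 at 15.9, Bhlhe40 at 15.0, Ciart at 12.4, Timeless at 12.1 and Bhlhe41 at 10.3. Of the 8 kinases and ubiquitin ligases that set the stability of PER and CRY proteins, 7 had one. Gsk3b stood at 20.0, Csnk1e at 13.8, Csnk1a1 at 13.6, Fbxw11 at 12.4, Csnk1d at 12.1 and Btrc at 11.8. Fbxl21 had a peak of 4.09 in pool I and none in the replicated list or in pool J. Of the relatives of Dbp, Tef reached 17.1, above Dbp, and Hlf 5.59. The median percentile was 43.4 for the 4 positive factors with a peak, 75.4 for the repressors and 81.3 for the kinases and ligases. As in the core set, the positive factors had the lowest median of these groups, counted over the genes with a peak.

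The label of the tissue was set against markers. Of 23 markers of cortical cell types, 21 had a promoter peak, those of neurons and excitatory cortical neurons at median percentiles 84.5 and 78.7 and those of interneurons at 5.20. Gfap of astrocytes had none. None of 9 genes listed for other places had one, including Avp, Prok2 and Six6 of the suprachiasmatic nucleus and hypothalamus. Vip, listed with them, also marks a class of cortical interneurons, so its missing peak does not bear on the label.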

How the data were processed

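H3K27ac ChIP-seq of left cerebral cortex was read from 4 peak lists that the authors deposited on mm10, as 10-column narrowPeak tables. Both pools together gave a replicated and a pseudoreplicated list, and each pool by itself a pseudoreplicated list, per the file headers. Both technical libraries of each pool name the same filtered alignment, so values exist by pool. The signal of each peak, deposited by the authors, is the caller's own value, and the −log10 q of each peak, also deposited, was used to filter. The summit offset, another deposited column, gave summit positions. Aligner, peak caller, versions and normalization were not named in any label or file header used here. The lists carry no read totals. Depth is therefore unknown, and counting intervals were not computed.

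Peaks were joined here to annotated TSSs of GENCODE vM21 basic (19 autosomes and X) with Python 3.11.15 and numpy 2.4.6. Figures were drawn with matplotlib 3.10.9. A promoter peak reached within 1000 bp of a TSS, and presence in a pool meant an overlap of at least 1 bp. Percentiles are mid-ranks within 1 list. No peak ended past the end of its chromosome in the reference genome. The counting steps were tested on simulated peaks and sequences. The pools are replicates of 1 group. The alternatives used each pool's list alone, the pseudoreplicated list of both pools, a −log10 q of at least 5, other windows, TSSs, arms and overlaps, and summed signal. The members and gene lists were chosen with earlier results of these data known. All members are named, and the genes of the wider list except for some that are not reported here, although the counts over the fixed lists include them. Other genes are named where a member's peak lay at their promoter or where they were nearest to it, and of the peaks outside a member's own promoter the 2 with the highest signal.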

Additional observations from a re-analysis of the deposited data

How the results depend on the processing

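Of 77 alternative values of the summary results, 62 stayed within the spread between pools (for counts, within 1.5 times), 15 moved beyond it and 0 reversed; of 200 alternative values for single genes, 166 stayed, 34 moved and 0 reversed. Reversed meant a change of sign, which only the difference between the arms could show, since percentiles, widths and counts are never negative. Changes of order between genes, as at Cry1 and Cry2, were not counted as reversals. The spread came from the same 2 pools whose lists were among the alternatives. Some alternatives, such as the list of both pools, reuse most of the same peaks. The tally is therefore no independent measure of stability. All 10 members had a promoter peak under every alternative run, and of the wider list 17 to 19 of 20 did. Leaving out either pool, the median percentile of the positive arm was 49.3 to 54.9 (58.6 with both), that of the negative arm 74.9 to 81.9 (78.4), their difference −32.6 to −19.9 (−19.8), the median width of the positive arm 2649.5 to 2663 bp (2733.5) and that of the negative arm 1349 to 2071 bp (1456). With Nr1d1 and Nr1d2 placed in the negative arm its median percentile was 92.8, the difference −34.2 and its width 2477 bp. With signals or widths summed over promoter peaks, the negative arm was at 90.4 and 2125 bp, the positive arm at 3073.5 bp and the difference −31.9. The 229 peaks within 100 kb became 145 at a −log10 q of at least 5 and 140 within 50 kb. Gaps that contain a TSS were found at 3 members in place of 7. The gap rule, its alternatives, the CCAAT count and the full annotation were chosen after seeing the data. No paired analysis was possible because there is 1 condition and no contrast. Read depth is unknown, so whether a peak missing from pool J was below detection was not tested.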
